A study of Mus musculus with 4 samples.

Results

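Claudins are membrane proteins that form the strands of tight junctions, the seals between neighbouring epithelial cells, and the set of claudins that a cell makes sets how tight and how ion-selective its seal is. In skin the seal lies in the differentiated layers of the epidermis, and in the mammary gland it lies between luminal cells, which line the duct. Their RNA was followed here for 7 claudin genes of mammary and skin epithelium, chosen by symbol: Cldn1, Cldn3, Cldn4, Cldn6, Cldn7, Cldn8 and Cldn23. They are 7 of 33 genes with a Cldn symbol in the feature lists, and of 30406 genes shared by the 4 libraries.

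The data are single-cell RNA-seq (10x Genomics 3′ v3.1) of dissected mammary tissue of female wild-type C57B6 mice (C57 B6/N in the study's methods) at embryonic days E13.5, E14.5 and E15.5, and at birth (P0), with 1 library per stage. Rudiments of several embryos were pooled for each embryonic library, each stage was dissected in its own session, and sorting on EpCAM, an epithelial surface protein, collected EpCAM+ and EpCAM- cells after cells with CD45, CD31 or Ter119 (blood and endothelial cells) had been excluded. The P0 tissue was digested with other enzyme concentrations than the embryonic tissue and went through red cell lysis. No stage has a second library, so no test was made, stage cannot be told apart from library and dissection session, and every interval below covers counting error only.

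Cells with at least 5000 UMIs (unique molecular identifiers, which count transcripts) and at most 6% mitochondrial UMIs were kept. A kept cell was epithelial when its summed UMIs of Epcam, Krt8, Krt18, Krt5 and Krt14 exceeded those of the collagen genes Col1a1, Col1a2 and Col3a1, and mesenchymal in the opposite case. Epithelial cells were then divided by the simple epithelial keratins Krt8 and Krt18: those with at least 5 UMIs of the pair are called Krt-high, the others Krt-low. E13.5 gave 61 Krt-high, 37 Krt-low and 135 mesenchymal cells, E14.5 gave 23, 22 and 31, and E15.5 gave 446, 86 and 283. P0 gave 228 Krt-high and 273 mesenchymal cells but only 2 Krt-low cells, so the keratin classes were not compared at P0. Levels are UMIs of a gene summed over a class per 1000000 UMIs of that class (CPM). Of the markers of excluded cells, Ptprc, Cdh5 and Cldn5 had at most 3.99 CPM in any class. Pecam1 stood between 4.41 and 33.9 CPM in mesenchymal and at no more than 6.92 CPM in epithelial cells. The globin genes Hba-a1 and Hbb-bs stood at 2742 and 3824 CPM in P0 mesenchymal cells, against 2.68 and 7.27 CPM in P0 epithelium and at most 1.73 CPM in the embryonic classes. Their part in the P0 mesenchymal claudin levels was not tested. No kept barcode occurred in more than 1 library.

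On the mouse genome GRCm38, the build of the files, Cldn3 (ENSMUSG00000070473, chr5:134986214-134987472, + strand) and Cldn4 (ENSMUSG00000047501, chr5:134945119-134946934, - strand) are neighbours, 39280 bases apart. Cldn7 (ENSMUSG00000018569) lies at chr11:69964779-69967885 on the + strand. Cldn1 (ENSMUSG00000022512, chr16:26356642-26371841, - strand) and Cldn8 (ENSMUSG00000050520, chr16:88560828-88563183, - strand) share a chromosome, Cldn6 (ENSMUSG00000023906) lies at chr17:23679249-23682446 on the + strand, and Cldn23 (ENSMUSG00000055976) at chr8:35824712-35826559 on the - strand. Cldn6 lies 138 bases from Cldn9, which reached 4.15 CPM at most. Cldn3 overlaps the antisense gene Wbscr25, which had 6 to 29 UMIs per library, and the other members overlap no annotated gene.

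The RefSeq promoter table (GRCm38.p6) held 5 of the 7 members. The 250 bases before the start site are shown for Cldn3 and Cldn4, the neighbours that differ most in how steeply they follow the keratins, and for Cldn7, whose level parted from theirs between the bud and superficial lists described below. Sequences run 5′ to 3′ on the gene's own strand, and capitals mark matches on either strand to TGANTCA (AP-1), CAGGTG (E-box), GGGCGG (GC box), AACCNGTT (the grainyhead motif) or TATAAA.
Cldn3, chr5:134985964-134986213: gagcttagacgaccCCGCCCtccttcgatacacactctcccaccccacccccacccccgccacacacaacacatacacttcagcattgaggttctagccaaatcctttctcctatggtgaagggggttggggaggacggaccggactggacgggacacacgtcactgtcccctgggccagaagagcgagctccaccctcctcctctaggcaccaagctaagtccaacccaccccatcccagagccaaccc
Cldn4, chr5:134946935-134947184: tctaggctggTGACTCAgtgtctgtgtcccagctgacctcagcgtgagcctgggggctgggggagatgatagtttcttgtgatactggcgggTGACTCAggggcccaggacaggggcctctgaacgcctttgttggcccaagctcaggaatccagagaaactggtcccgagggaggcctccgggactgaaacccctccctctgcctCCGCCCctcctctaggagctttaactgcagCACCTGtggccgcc
Cldn7, chr11:69964529-69964778: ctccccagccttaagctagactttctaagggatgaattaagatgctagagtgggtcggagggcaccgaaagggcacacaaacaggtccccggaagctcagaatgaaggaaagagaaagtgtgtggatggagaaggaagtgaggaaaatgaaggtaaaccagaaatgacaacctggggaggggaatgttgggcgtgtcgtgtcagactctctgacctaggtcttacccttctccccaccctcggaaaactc
The Cldn4 window held AP-1 matches 240 and 158 bases before the start site, an E-box match at 14 and a GC box match at 44. AP-1 matches occurred in 6.75% of 32851 promoter windows of this length, E-box matches in 17.2% and GC box matches in 32.7%. The Cldn3 window held only a GC box match at 236. Cldn7 has 2 start sites in the table: the window shown held none of the 5 motifs, and that of the other start site, chr11:69965171-69965420, held E-box matches at 97 and 57 and a GC box match at 6. The grainyhead motif occurred in 1.79% and TATAAA in 12.4% of all windows. A match is a description of the letters and not of binding.

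The first comparison asked which claudins mark epithelium against mesenchyme. Cldn3, Cldn4, Cldn6 and Cldn7 were all at least 18.6-fold higher in epithelial cells at every stage, Cldn23 was higher wherever it had enough counts, and Cldn1 was higher in epithelium at E15.5 and P0 only. Ratios are given with exact 95% intervals.

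Cldn4, a claudin of many simple epithelia, stood at 684 CPM in epithelial and 5.40 CPM in mesenchymal cells at E13.5, a ratio of 127 (73.8 to 238). At E14.5 it stood at 369.9 and 1.19 CPM, at E15.5 at 1192 and 29.5 CPM, and at P0 at 1164 and 32.7 CPM. The epithelial level was far above the mesenchymal one in each library, and the mesenchymal level was highest in the E15.5 and P0 libraries. Part of those mesenchymal counts lay in mixed cells, 6 at E15.5 and 9 at P0, whose smaller tissue sum exceeded 0.1 of the larger. Without them the mesenchymal level was 8.53 CPM at E15.5 and 12.8 CPM at P0, and the ratios rose from 40.4 to 139 and from 35.6 to 92.7.

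Cldn3, which joins Cldn4 and Cldn7 in the junctions of luminal cells, had 365 UMIs in E13.5 epithelium (179 CPM) and 2 UMIs in mesenchyme, a ratio of 215 (59.2 to 1784). It fell to 30.6 CPM in E14.5 epithelium, stood at 78.2 CPM at E15.5 and reached 480.0 CPM at P0, against 1.19, 1.10 and 19.1 CPM in mesenchyme. The order of its epithelial levels was therefore P0, E13.5, E15.5 and E14.5, with no 2 of the 4 intervals overlapping. Cldn7 also lies along the sides of epithelial cells. Over all epithelial cells it rose with each stage, from 175 CPM (157 to 194) through 238 (212 to 266) and 549 (536 to 561) to 930 CPM (894 to 968) at P0. In the mammary bud-list cells described below Cldn7 did not rise throughout. It stood there at 528.5 CPM (456.7 to 608.3) at E13.5, 339.2 CPM (282.1 to 404.4) at E14.5 and 675.8 CPM at E15.5. The part of a changing mix of cells in the rise was not tested. The mesenchymal levels of Cldn7 were 0.830, 0, 10.7 and 30.7 CPM, and its ratio at P0 was 30.3 (24.1 to 38.5), or 127 without mixed cells.

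Cldn6, an embryonic claudin of early epithelia, stood at 126 CPM in E13.5, 104 CPM in E14.5 and 189 CPM in E15.5 epithelium and at 81.5 CPM at P0. Mesenchymal cells had 2, 0, 32 and 11 Cldn6 UMIs in the same order. The lowest Cldn6 ratio was that of P0, at 18.6 (10.2 to 37.8). Cldn23, a little-studied family member, had 193 UMIs in E13.5 epithelium (94.5 CPM) and none in mesenchyme, and so was at least 75.9-fold higher against 3 counts (exact lower limit 61.1). From E14.5 on it was low, at 4.71, 4.90 and 10.3 CPM in epithelium, with 0, 1 and 1 UMIs in mesenchyme.

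Cldn1, which the epidermal barrier requires, behaved differently. It stood at 6.37 CPM in epithelium and 6.23 CPM in mesenchyme at E13.5, a ratio of 1.02 (0.448 to 2.30). At E14.5 the mesenchymal level was the higher, 23.9 against 9.42 CPM, but 12 of its 20 mesenchymal UMIs lay in 1 cell, the other cells had 10.2 CPM, and the ratio without that cell was 0.922 (0.346 to 2.60). At E15.5 the epithelial level was 6.47-fold higher (4.85 to 8.81, 44.6 against 6.89 CPM), and at P0 it was 12.7-fold higher (8.84 to 18.8, 162 against 12.8 CPM). Cldn8, a claudin of kidney and other tight epithelia, had 15 epithelial and 1 mesenchymal UMI at E13.5 and none in the E14.5 library. E15.5 and P0 gave 4 and 6 epithelial UMIs and no mesenchymal one. It was thus under 20 UMIs in each library and entered no count.

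**Figure D1:**
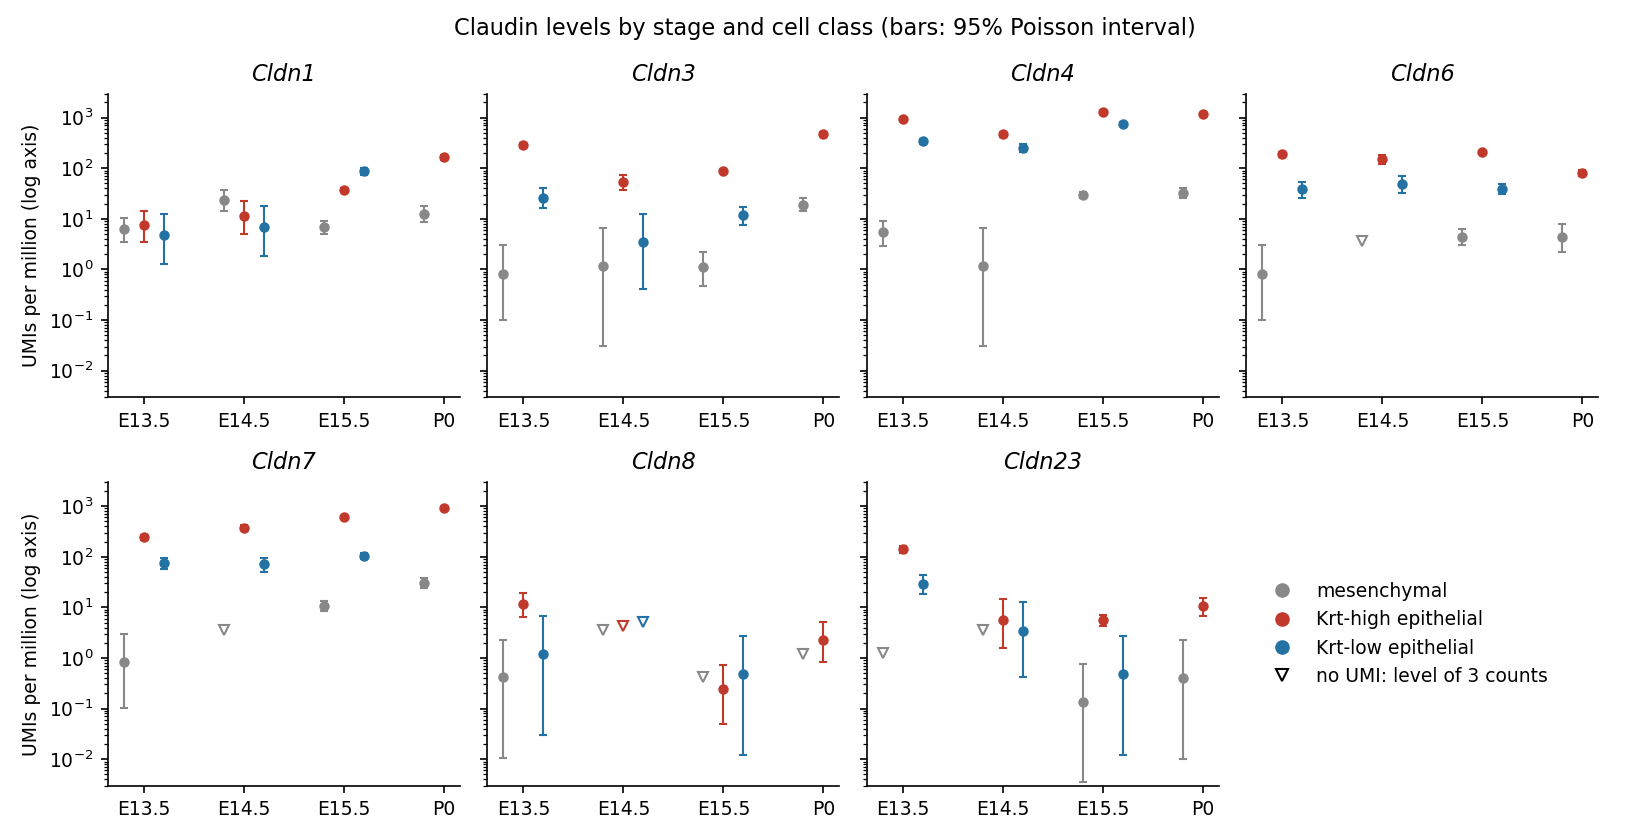
Level of each claudin (CPM, log axis) by stage in mesenchymal, Krt-high and Krt-low epithelial cells, with 95% Poisson intervals; open triangles mark classes without a UMI, drawn at the level of 3 counts, and the 2 Krt-low cells of P0 are left out. Cldn4 and Cldn7 lie far above mesenchyme at all 4 stages, Cldn1 parts from it at E15.5, and Cldn23 is high only at E13.5.

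Among members with at least 20 UMIs in both classes together, 5 of 6 were at least 2-fold higher in epithelium at E13.5, where 10.3% of all such genes were. At E14.5 it was 4 of 5 beside 14.7% of genes, and the exception, Cldn1, was the 1 member at least 2-fold lower, beside 17.5% of genes. In the libraries of E15.5 and P0 it was 6 of 6, beside 16.8% and 24.7% of genes. The shares of cells with a UMI gave the same picture at equal depth. After each cell was thinned to 5000 UMIs, Cldn4 was found in 95.1% of Krt-high and 2.22% of mesenchymal cells at E13.5, and in 87.3% and 10.3% at P0. The corresponding shares of Cldn7 at E15.5 were 83.4% and 2.83%. The mesenchymal shares were taken as the background, on the assumption that mesenchymal cells lack these claudins. They include the mixed cells, so they are not a measure of free RNA alone. For Cldn4 the mesenchymal share was highest at P0.

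The next comparison asked whether claudins follow the simple keratins within the epithelium. Krt-high cells had more Cldn3, Cldn4, Cldn6 and Cldn7 than Krt-low cells at all 3 embryonic stages. By value Cldn3 had the largest and Cldn4 the smallest ratio of the 4 at each, and Cldn1 ran the other way at E15.5. At E13.5 Cldn3 stood at 284 CPM in Krt-high and 26.3 CPM in Krt-low cells, a ratio of 10.8 (7.03 to 17.5). Cldn6 followed with 187 against 38.3 CPM (4.90-fold, 3.37 to 7.33), Cldn23 with 140.2 against 28.7 CPM (4.88-fold, 3.17 to 7.84) and Cldn7 with 245 against 74.2 CPM (3.30-fold, 2.50 to 4.41). Cldn4 differed least, 923 against 339 CPM (2.73-fold, 2.39 to 3.12). All 5 members with 20 UMIs were thus at least 2-fold higher, beside 10.6% of all genes. The keratin classes differed in the marker lists described below. Basal epidermis-list cells were 24 of 37 Krt-low but 13 of 61 Krt-high cells at E13.5. They were 12 of 22 and 3 of 23 at E14.5, and 46 of 86 and 129 of 446 at E15.5. Superficial-list cells were 27 of 61 Krt-high but 3 of 37 Krt-low cells at E13.5. These 30 cells held 294 of the 365 Cldn3 and 175 of the 193 Cldn23 UMIs of E13.5 epithelium. At E14.5 they were 7 of 23 Krt-high and 2 of 22 Krt-low cells, and at E15.5 127 of 446 and 5 of 86. What these differences add to the keratin ratios and to the keratin steps below was not tested.

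At E14.5 the Krt-high level of Cldn3 was 53.2 CPM against 3.46 CPM, a ratio of 15.4 (3.97 to 132) that rests on 2 Krt-low UMIs. Cldn7 was 5.31-fold (3.81 to 7.57), Cldn6 3.09-fold (2.02 to 4.87) and Cldn4 1.85-fold (1.52 to 2.26) higher. Of 4 members 3 passed 2-fold, Cldn3, Cldn6 and Cldn7, beside 10.9% of genes. At E15.5, the library with the most cells, Cldn3 was 7.61-fold (5.09 to 11.9), Cldn7 6.01-fold (5.24 to 6.92) and Cldn6 5.40-fold (4.33 to 6.82) higher in Krt-high cells. Cldn4 was 1.65-fold higher (1.57 to 1.74), 1264 against 765 CPM, and so was abundant on both sides of the limit. Cldn23, with 69 UMIs against 1, was 11.5-fold higher (2.00 to 461), so 4 of 6 members passed 2-fold, beside 1587 of 11759 genes.

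Cldn1 was lower in Krt-high than in Krt-low cells of E15.5, 37.6 against 86.6 CPM, a ratio of 0.434 (0.364 to 0.519), and it was the 1 member past 2-fold in this direction, beside 4.24% of genes. It was not past 2-fold with a mitochondrial maximum of 10% (0.535) or a keratin limit of 10 UMIs (0.606). Its Krt-low UMIs were uneven: 137 of 177 lay in 23 cells assigned below to the suprabasal list, which stood at 213 CPM, and the 46 basal epidermis-list cells stood at 19.6 CPM. At E13.5 and E14.5 Cldn1 had too few UMIs for the comparison, 13 and 12 in all.

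The limit of 5 keratin UMIs depends on depth. With every cell thinned to 5000 UMIs before the classes were formed, the number of Krt-high cells went from 61 to 28 at E13.5, from 23 to 1 in the E14.5 library and from 446 to 313 in that of E15.5, and 3, 0 and 2 members passed 2-fold. At E15.5 the thinned ratios were 2.80 for Cldn3, 1.91 for Cldn7, 1.53 for Cldn6 and 1.54 for Cldn4, still above 1, and Cldn1 changed side (1.20, 0.795 to 1.82).

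**Figure D2:**
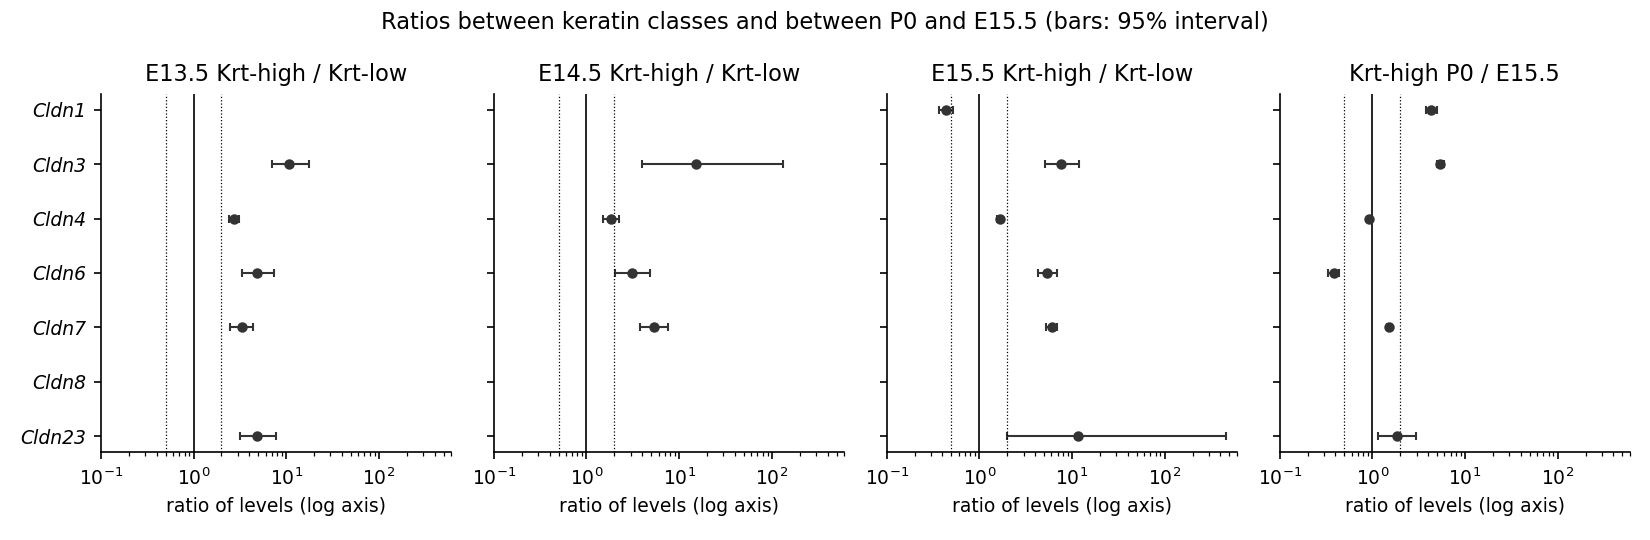
Ratio of each claudin's level (log axis, 95% interval) between Krt-high and Krt-low epithelial cells of the 3 embryonic stages, and between Krt-high cells of P0 and E15.5; the solid line marks 1, dotted lines mark 2-fold, and members under 20 UMIs are left out. Cldn3 lies farther right than Cldn4 in every panel, and Cldn1 lies left of 1 in the E15.5 panel.

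Finer steps of the keratin count gave the shape of these differences. At E13.5 Cldn3 rose from 12.0 CPM in cells without a Krt8 or Krt18 UMI through 40.5 CPM (1 to 4 UMIs) and 154 CPM (5 to 19) to 621 CPM (20 to 99). Cldn4 climbed over the same steps from 252 through 424 and 718 to 1417 CPM, a smaller fold than that of Cldn3. Cldn23 went from 16.8 to 269 CPM. Cldn1 lay between 4.77 and 5.92 CPM, but with 13 UMIs in all no trend could be seen at this depth.

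At E15.5 the 38 cells without a keratin UMI had 6.96 CPM of Cldn3, 9.94 CPM of Cldn6 and 30.8 CPM of Cldn7, but 867 CPM of Cldn4 and 129 CPM (108 to 153) of Cldn1. Over the higher steps Cldn7 rose to 174, 480, 646 and 693 CPM and Cldn3 to 16.4, 40.5, 88.3 and 149 CPM. Cldn1 fell to 45.2 and 21.4 CPM and then stood at 39.8 and 46.9 CPM. At E15.5 Cldn4 was thus present in epithelial cells with or without the simple keratins, Cldn3, Cldn6 and Cldn7 were low without them, and Cldn1 was highest where they were absent. In the E14.5 library Cldn4 stood at 80.7 CPM (53.65 to 116.7) in the 10 cells without a keratin UMI. It stood at 511 CPM with 1 to 4 and 435 CPM with 5 to 19 keratin UMIs.

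**Figure D3:**
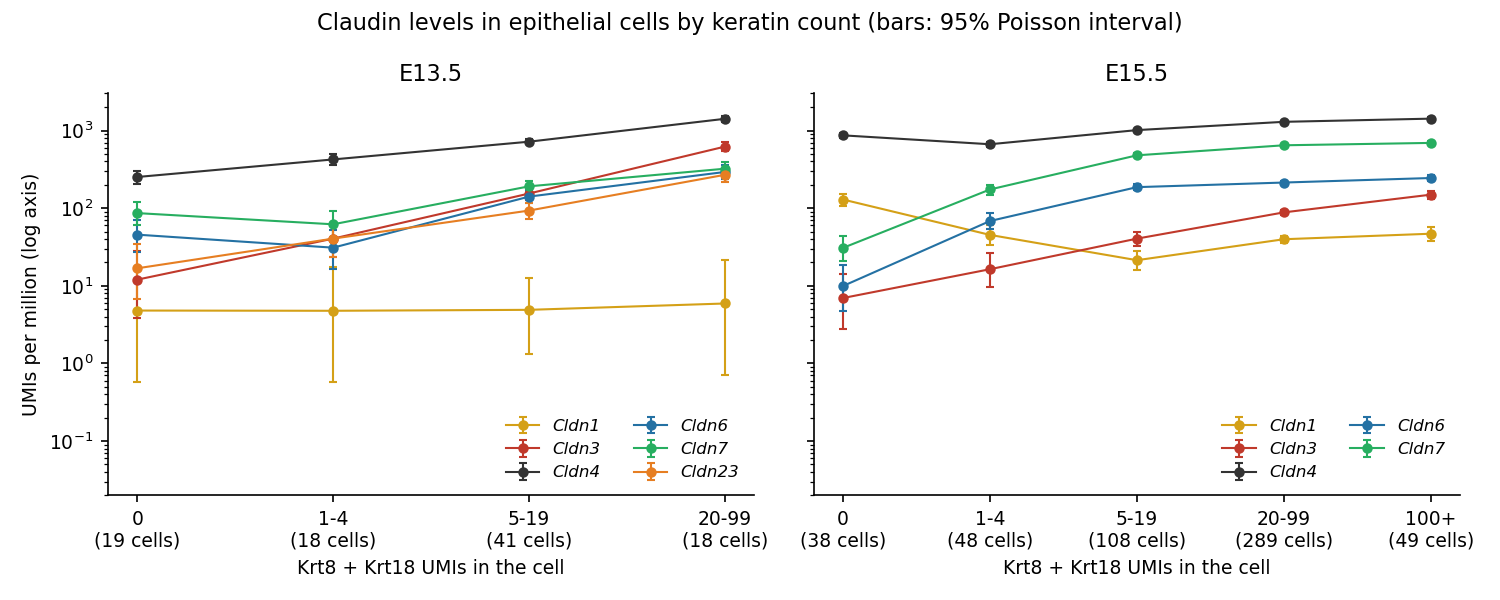
Levels (CPM, log axis, 95% Poisson intervals) in epithelial cells of E13.5 and E15.5 by the number of Krt8 and Krt18 UMIs in the cell. At E15.5 Cldn7 rises from 30.8 to 693 CPM while Cldn1 is highest, at 129 CPM, in the 38 cells without a keratin UMI.

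The epithelial cells were next assigned to the list of marker genes with the highest mean score, to see in which kinds of cell each claudin lay. At E13.5 the lists gave 21 mammary bud-list, 37 basal epidermis-list, 9 suprabasal-list and 30 superficial-list cells. The superficial list stands for the flat outermost layer of embryonic skin (Gabrp, Hopx, Krt17, Sfn), of which Gabrp stood at 624 CPM in its own class and 0 in bud-list cells, while Sfn did not separate the classes. The claudin sets of these classes differed. Superficial-list cells held 175 of the 193 Cldn23 UMIs and the highest level of Cldn3, and Cldn7 was highest in bud-list cells. By value Cldn3, Cldn4, Cldn6 and Cldn7 were all lowest in basal epidermis-list cells. For Cldn4 and Cldn7 the intervals of that class and of the 9 suprabasal-list cells overlapped. Cldn4 stood at 409 (368 to 453) and 463 CPM (375 to 566), and Cldn7 at 80.5 (63.1 to 101) and 97.55 CPM (59.6 to 151).

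In the 30 superficial-list cells Cldn23 stood at 325 CPM (279 to 377) and was found in 27 cells, against 1 UMI in the 21 bud-list cells (2.72 CPM) and 4 UMIs in the 37 basal epidermis-list cells (4.41 CPM). The 9 suprabasal-list cells, of which 3 had a UMI, stood between at 63.4 CPM (33.8 to 108). Cldn3 stood at 546 CPM in superficial-list, 128 CPM in bud-list and 7.72 CPM in basal epidermis-list cells. Cldn7 had another order, 528 CPM (457 to 608) in bud-list, 126 CPM (98.1 to 160.1) in superficial-list and 80.5 CPM (63.1 to 101) in basal epidermis-list cells. Superficial-list over bud-list cells gave a ratio of 4.26 (3.13 to 5.93) for Cldn3, 119 (21.1 to 4738) for Cldn23 and 0.239 (0.179 to 0.317) for Cldn7. Thus 2 of 5 members were at least 2-fold higher, beside 796 of 5670 genes, and 1 was lower, beside 12.9%.

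Cldn4 and Cldn6 differed less between these classes, 1116 against 861 CPM (1.30-fold, 1.13 to 1.49) and 277 against 169 CPM (1.64-fold, 1.21 to 2.24). Of the 15 Cldn8 UMIs of E13.5 epithelium, 12 lay in superficial-list cells, 10 of which had a UMI, and the other 3 in bud-list cells. Bud-list over basal epidermis-list cells gave 16.6 (7.45 to 43.5) for Cldn3, 6.57 (4.99 to 8.72) for Cldn7, 5.47 (3.45 to 8.88) for Cldn6 and 2.10 (1.81 to 2.45) for Cldn4. All 4 members with 20 UMIs passed 2-fold in this comparison, beside 12.7% of genes. The median depth of a cell was 17966 UMIs in superficial-list, 16883 in bud-list and 23744 in basal epidermis-list cells. The part of depth in these ratios was not tested.

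At E14.5 only 45 epithelial cells were kept, their list classes held 4 to 15 cells, and the superficial list had 4.31 CPM each of Gabrp and Hopx in its own class, so the name is that of the list alone. Cldn4 was again highest in superficial-list cells, 858 CPM (743 to 986) in 9 cells, against 293 CPM in 14 bud-list and 175 CPM in 15 basal epidermis-list cells. Cldn7 stood at 341 CPM in superficial-list and 339 CPM in bud-list cells, without the difference of E13.5, and Cldn23 had 1 UMI in the superficial-list cells.

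At E15.5 the classes were closer to one another. The superficial list no longer marked a separate class, since Gabrp was at 1.64 and Hopx at 23.2 CPM in the 132 cells assigned to it, and 113 of them scored within 0.5 SD of a second list. The 74 suprabasal-list cells had Krt1 at 714 and Krt10 at 1111 CPM, genes that assigned them, but a median of 0 and 3 UMIs per cell. Of these cells, 38 also scored within 0.5 SD of a second list. Krtdap, another gene of the suprabasal list, stood at 3616 CPM in them, with a median of 82 UMIs per cell. Of the 74 cells, 51 were Krt-high. The paper reports Krtdap among the genes specific to its luminal-like mammary cluster of this stage. Of the bud list, it reports Pthlh, Wnt10b and Sostdc1 as enriched in its basal-like mammary cluster and Ndnf as a basal marker. The bud name is thus that of the list alone at E15.5, and mammary cells can lie in the other classes. How many of the suprabasal-list cells are mammary and how many epidermal was not tested. Whether ratios to bud-list cells set skin against mammary cells, or luminal-like against basal-like ones, was not tested either. Cldn1 stood at 118 CPM (104 to 133) in suprabasal-list, 53.9 CPM in superficial-list, 22.8 CPM in basal epidermis-list and 19.8 CPM in bud-list cells. The last 2 of these did not differ beyond their intervals.

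Suprabasal-list over bud-list cells of E15.5 gave 5.95 (4.59 to 7.78) for Cldn1, 2.27 (1.87 to 2.76) for Cldn3 and 0.401 (0.367 to 0.439) for Cldn7, 271 against 676 CPM. Of 6 members, 2 were thus at least 2-fold higher, beside 5.24% of genes, and 1 was lower, beside 18.8%. With cells within 0.5 SD of a second list left out, the Cldn1 ratio was 26.3, the Cldn7 ratio 0.220 and the Cldn3 ratio 0.810, so the Cldn3 difference depended on cells near the limit. Superficial-list over bud-list cells gave 3.00 for Cldn3, 2.72 for Cldn1 and 2.72 for Cldn23, 3 of 6 members beside 2.58% of genes, and 0.989 (0.935 to 1.05) for Cldn7. The basal epidermis name is also that of the list alone at E15.5, where 129 of its 175 cells were Krt-high. Krt14 stood at 2750 CPM in its class and 2284 CPM in bud-list cells. Krt15 (455 against 153 CPM) and Col17a1 (238 against 82.5 CPM) differed more. How many of these cells are mammary was not tested. Bud-list over basal epidermis-list cells gave no member past 2-fold, beside 4.44% of genes. With cells near a second list left out, which are 91 of 147 bud-list and 111 of 175 basal epidermis-list cells, Cldn3 (3.87) and Cldn6 (2.04) passed it. Cldn4 lay between 1012 and 1493 CPM in all 4 classes.

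At P0 the lists of the postnatal gland gave 19 contractile-list cells (Acta2, Myh11, Mylk, Oxtr, genes of myoepithelium), 31 hormone-sensing-list cells (Prlr, Esr1, Cited1, Pgr) and 98 luminal progenitor-list cells (Aldh1a3, Wfdc18, Csn3, Kit). Another 72 epithelial cells met no list, and 10 cells scored for the suprabasal list but carried Aldh1a3 at 677 CPM, so they are not described. The contractile-list cells were claudin-poor: Cldn4 stood at 59.0 CPM (30.5 to 103), Cldn7 at 93.5 CPM, Cldn3 at 98.4 CPM, Cldn6 at 19.7 CPM and Cldn1 at 4.92 CPM. They also held 1609 CPM of Csn3, a milk protein gene, and 802 CPM of Wfdc18, both of the luminal progenitor list. Luminal progenitor-list cells held 2416 and 6931 CPM of them. Csn3 thus separated these classes little, with medians of 10 and 10.5 UMIs per cell, and Wfdc18 separated them more. The part of RNA from luminal cells in these claudin levels was not tested.

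Luminal progenitor-list over contractile-list cells gave 56.2 (10.0 to 2228) for Cldn1, 23.4 (13.4 to 45.5) for Cldn4, 11.6 (7.37 to 19.3) for Cldn7, 6.55 (4.21 to 10.8) for Cldn3 and 5.59 (2.13 to 20.9) for Cldn6. All 5 members with 20 UMIs passed 2-fold, beside 18.7% of genes. Hormone-sensing-list over contractile-list cells gave 15.7 for Cldn4, 8.96 for Cldn7 and 2.30 (1.42 to 3.90) for Cldn3, all 3 members past 2-fold beside 22.4% of genes. With cells near a second list left out, the luminal progenitor ratios rose to 67.9 for Cldn4, 36.4 for Cldn7 and 25.9 for Cldn3.

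The luminal classes differed from each other in some claudins and not in others. Cldn1 stood at 277 CPM (246 to 311) in luminal progenitor-list and 18.7 CPM (8.97 to 34.4) in hormone-sensing-list cells, a ratio of 14.8 (7.93 to 31.2). Cldn6 was 4.53-fold (2.55 to 8.76) and Cldn3 2.85-fold (2.34 to 3.48) higher in luminal progenitor-list cells, and Cldn23, with 17 against 3 UMIs, 2.90-fold (0.839 to 15.45). These 4 of 6 members passed 2-fold beside 11.8% of genes. Cldn4 (1.497-fold, 1.35 to 1.66) and Cldn7 (1.29-fold, 1.16 to 1.44) were nearer to level. At equal depth, a Cldn1 UMI was found in 56.1% of luminal progenitor-list and 9.68% of hormone-sensing-list cells. A Cldn7 UMI was found in 96.9% of luminal progenitor-list and 21.1% of contractile-list cells.

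**Figure D4:**
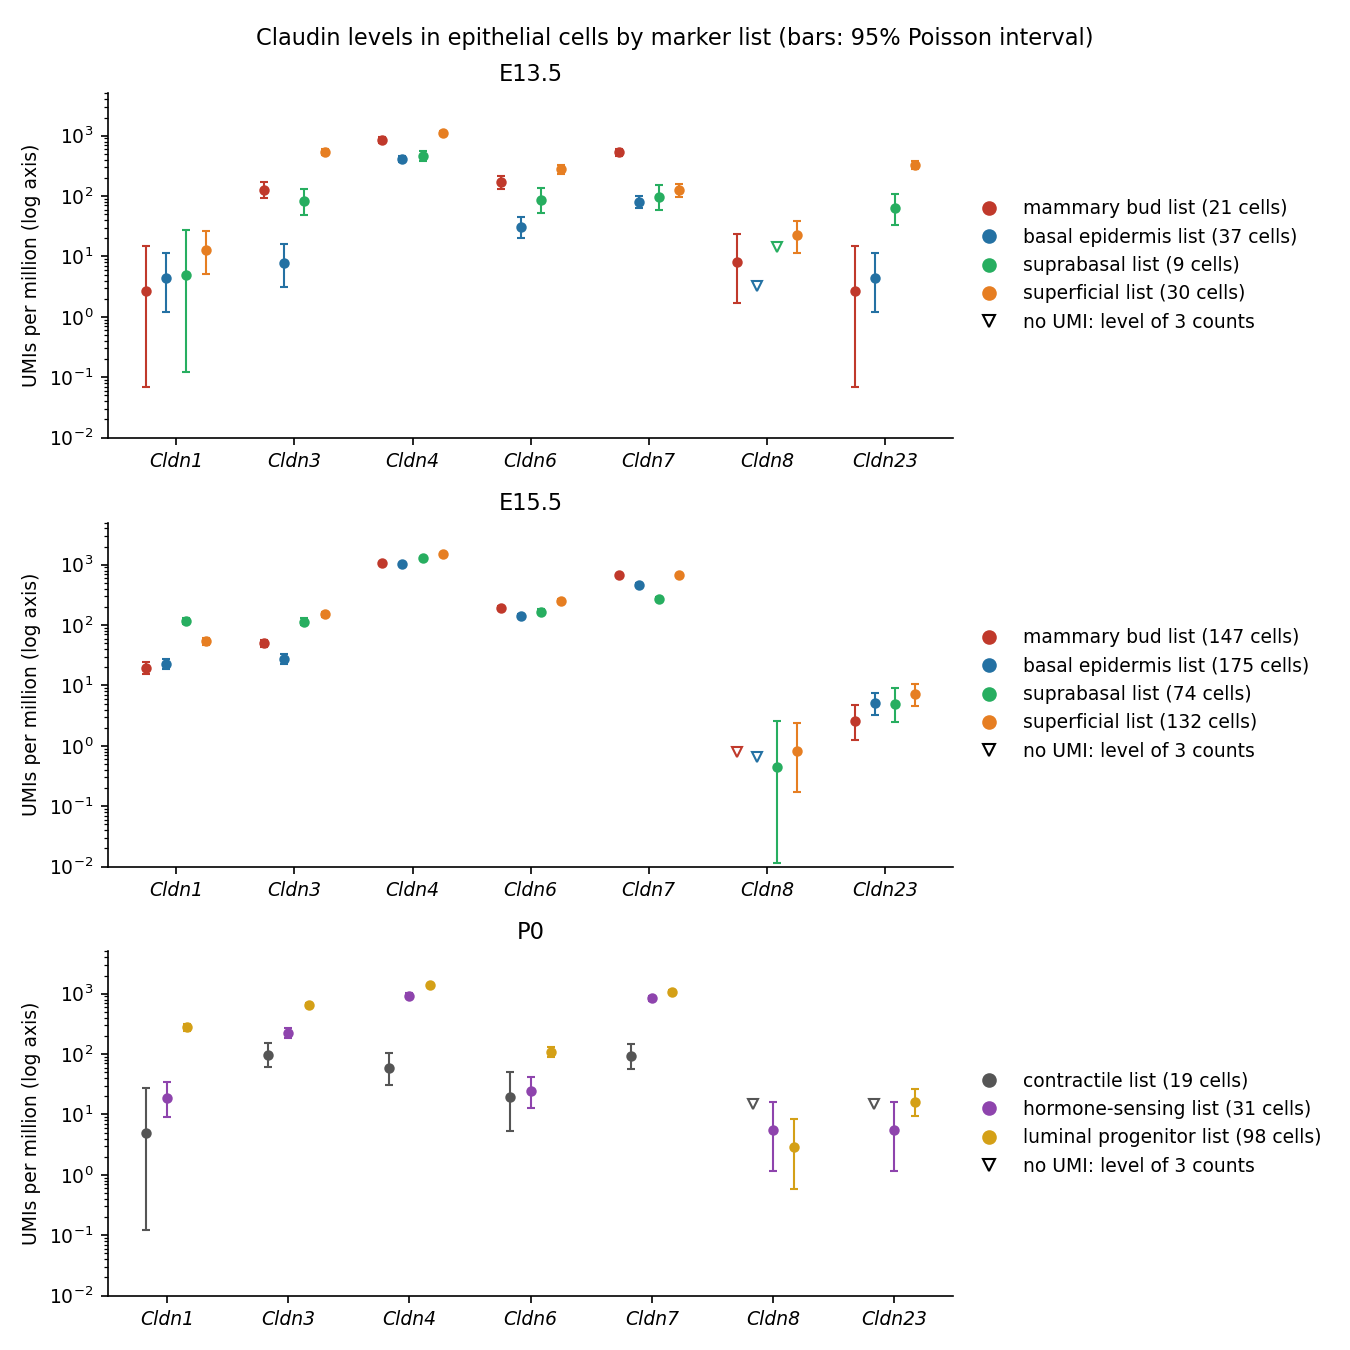
Level of each claudin (CPM, log axis, 95% Poisson intervals) in epithelial cells assigned to marker lists at E13.5, E15.5 and P0; open triangles mark classes without a UMI, drawn at the level of 3 counts. Cldn23 is highest in superficial-list cells of E13.5, Cldn1 is highest in suprabasal-list cells of E15.5 and luminal progenitor-list cells of P0, and within P0 the contractile-list cells lie lowest for Cldn3, Cldn4 and Cldn7.

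Between stages, the Krt-high cells were compared. From E13.5 to E14.5 Cldn23 fell from 140.2 to 5.75 CPM, a ratio of 0.0410 (0.0111 to 0.107), and Cldn3 from 284 to 53.2 CPM, a ratio of 0.187 (0.130 to 0.263). These were the 2 of 5 members at least 2-fold lower, beside 7.51% of genes, and Cldn7 was 1.54-fold higher. The Krt-high classes of these libraries did not hold the same cells. At E13.5, 27 of the 61 Krt-high cells were superficial-list cells with Gabrp at 624 CPM, and at E14.5 the 7 of 23 assigned to that list came from a class with Gabrp at 4.31 CPM. The part of this in the ratios was not tested. From E14.5 to E15.5 Cldn1 rose 3.26-fold (1.64 to 7.61) and Cldn4 2.70-fold (2.42 to 3.03), 2 of 6 members beside 6.81% of genes.

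The Krt-high cells of E15.5 and P0 were of different lists: 136 bud-list, 129 basal epidermis-list, 51 suprabasal-list and 127 superficial-list cells at E15.5, but 98 luminal progenitor-list, 31 hormone-sensing-list and 18 contractile-list cells, beside cells of no list, at P0. The part of this in the ratios was not tested. From E15.5 to P0 the Krt-high level of Cldn3 rose from 89.3 to 484 CPM, a ratio of 5.42 (4.998 to 5.89), and that of Cldn1 from 37.6 to 163 CPM, a ratio of 4.35 (3.80 to 4.97). These 2 of 6 members were past 2-fold beside 14.9% of genes. Cldn6 fell from 214 to 82.2 CPM, a ratio of 0.384 (0.333 to 0.442), the 1 member past 2-fold downwards, beside 19.3% of genes. Cldn4 was nearly level, 1264 and 1175 CPM (0.930, 0.894 to 0.967), and Cldn7 was 1.51-fold higher (1.44 to 1.58). Cldn23 was 1.85-fold higher (1.14 to 2.93), with 27 UMIs at P0.

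Single cells usually held several claudins. After thinning to 5000 UMIs, a Krt-high cell had UMIs of a median of 3 members at each of the 4 stages, a Krt-low cell of 1 at the 3 embryonic stages, and a mesenchymal cell of 0. Among Krt-high cells of P0, Cldn6 was found in 36.8% of the 171 cells with a Cldn3 UMI and in 5.26% of the 57 cells without. Cldn1 was found in 43.3% and 17.5% of the same cells. At E15.5 a Cldn7 UMI was found in 73.8% (60.9 to 84.2) of the 61 cells with a Cldn1 UMI and in 84.9% (81.0 to 88.4) of the 385 cells without, intervals that overlap. These are counts of sparse UMIs in cells of 1 library. At both stages they also mix list classes. At E15.5 Cldn1 was found in 39.2% of suprabasal-list and 5.44% of bud-list cells, Krt-low cells included, and Cldn7 in 41.9% and 85.0%. At P0 Cldn3 was found in 26.3% of contractile-list, 61.3% of hormone-sensing-list and 81.6% of luminal progenitor-list cells. The shares of Cldn6 were 5.26%, 9.68% and 36.7% in that order. How far the classes account for the joint detection was not tested.

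Over the 11 classes of at least 20 cells, the genes whose log2(CPM + 10) followed each claudin best were found among 5517 genes. These are descriptions over classes that share libraries and include mesenchyme as well as epithelium. A gene confined to epithelium can therefore reach a high r from that split alone. Cldn4 was followed by Cdh1, the epithelial cadherin, F11r, a tight junction adhesion molecule, and Jup, plakoglobin (Pearson r of 0.985, 0.985 and 0.983). Cldn6 was followed by Marveld2 (tricellulin, r = 0.981), Dstn and Rtf2, and Cldn7 by Epcam (0.970), which was used to form the classes, St14 and Eif5. Cldn3 was followed by Krt18 (0.954), also used to form the classes, Krt19 and Mal2. Cldn23 was followed by Gabrp (0.978), a gene of the superficial list, Emx1 and Upk1b, a uroplakin. It stood at 140.2 and 28.7 CPM in Krt-high and Krt-low cells of E13.5 and at no more than 10.4 CPM in the other classes. These r therefore rest largely on the E13.5 library, and any gene high there alone can rank near the top. Cldn8, with too few UMIs, is left out. Cldn1 was followed by Ptpn23, Tgfa, an EGF receptor ligand, and Muc15 (0.948, 0.947 and 0.941). Among the members themselves Cldn4, Cldn6 and Cldn7 were most alike (r of 0.924 to 0.938), and Cldn1 had r of 0.503 or less with each of the others.

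The other 26 Cldn genes were low in the mesenchymal, Krt-high and Krt-low classes. None reached 50 CPM in such a class of at least 10 cells, and 11 had no UMI in any of them. The highest there were Cldn10 at 26.3 CPM, Cldn12 at 20.5 CPM and Cldn34c1 at 10.4 CPM. The endothelial claudin Cldn5 reached 0.978 CPM. Between lists of P0, Cldn10 was 16.3-fold higher in hormone-sensing-list than in contractile-list cells, beside 22.4% of genes at least 2-fold higher. It was the 1 other claudin with 20 UMIs in that comparison. The ratio rests on few contractile-list UMIs: Cldn10 had 68 UMIs in all P0 epithelium, and 1 UMI is 4.92 CPM in the 19 contractile-list cells. The limit of 50 CPM was not applied to list classes. In luminal progenitor-list over hormone-sensing-list cells Cldn10 was at least 2-fold lower, beside 10.2% of genes.

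The rest of the tight junction was given by a list of 28 genes for transmembrane, scaffold and polarity proteins. Of those with 20 UMIs, 13 of 23 at E13.5, 14 of 19 at E14.5, 20 of 27 at E15.5 and 19 of 26 at P0 were at least 2-fold higher in epithelial than in mesenchymal cells, beside the 10.3%, 14.7%, 16.8% and 24.7% of all genes. At least 2-fold lower were 2, 2, 3 and 2 list genes, beside 21.9%, 17.5%, 22.5% and 18.9% of all genes: Jam3 each time, Amotl2 at the embryonic stages, Jam2 at E15.5 and Ildr2 at P0. Ocln, occludin, stood at 97.5 against 0.830 CPM at E13.5 and at 126 against 2.79 CPM at P0. Tjp1, the scaffold ZO-1, had a smaller difference, 2.67-fold (2.14 to 3.36) at E13.5 and 3.64-fold (2.92 to 4.57) at P0. Jam3 ran the other way at every stage, with 6.37 against 101 CPM at E13.5 and 1.15 against 23.9 CPM at P0.

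Between Krt-high and Krt-low cells, 9 of 19 list genes were at least 2-fold higher at E13.5 and 6 of 18 at E14.5. The shares of all genes were 10.6% and 10.9%. At least 2-fold lower were 0 and 1 list genes, beside 3.82% and 5.52% of all genes. At E15.5, 4 of 25 list genes were at least 2-fold higher, Marveld2 and the thinly counted Tjp3, Cgnl1 and Jam3, and none were lower. That share is near the 1587 of 11759 of all genes. Tjp1 was 1.39-fold (1.25 to 1.56) and Ocln 1.73-fold (1.499 to 1.995) higher, below the ratios of Cldn3, Cldn6 and Cldn7. From E15.5 to P0, where Cldn3 and Cldn1 rose, Ocln stood at 0.705 (0.626 to 0.792), F11r at 0.569 (0.515 to 0.628) and Tjp1 at 0.603 (0.541 to 0.670) of its E15.5 level in Krt-high cells. Cgn, the junction scaffold cingulin, rose from 9.47 to 35.9 CPM (3.79-fold, 2.85 to 5.02). The list as a whole had 7 of 27 genes past 2-fold upwards, beside 14.9% of all genes, and 2 downwards, beside 19.3%, with a median ratio of 1.44, so these 3 falls ran against the list's median. Within P0, 13 of 23 list genes were at least 2-fold higher in luminal progenitor-list than in contractile-list cells, and 0 lower. All genes had shares of 18.7% and 7.33%. Hormone-sensing-list over contractile-list cells gave 3 of 16 higher and 3 lower, beside 22.4% and 10.8% of all genes.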

How the data were processed

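Each library came as a matrix of raw UMI counts deposited by the authors, made with Cell Ranger on the mm10 reference. Per the file headers its version was 3.1.0 at E15.5 and 6.0.0 at the other stages. The feature list of E15.5 also differed, with 26 other Cldn genes against 25 at the other stages. Ratios between E15.5 and another stage therefore also compare versions and feature lists, and the part of these was not tested. Levels are summed counts per 1000000 UMIs with exact Poisson intervals, shares have exact binomial (Clopper-Pearson) intervals, and ratios have exact conditional binomial intervals (Python 3.11.15, NumPy 2.4.6, SciPy 1.17.1, Matplotlib 3.10.9). The steps were tested on simulated data.

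A class without UMIs was set to 3 counts. The 2-fold rule used genes with 20 UMIs in both classes together. A list score was the mean z score of log2(CPM/100 + 1), and a list needed 2 detected genes in the cell. The members and all lists were chosen with earlier results of these data known. Genes named were the members, list genes with at least 50 CPM in a class and the 3 closest genes of each member but Cldn8; other claudins, Tjp3, Cgnl1, Jam2 and Ildr2 were named after their values were seen. The kept cells of a class had a median of 8743 to 27646 UMIs. The sort excluded joined cells per the labels, and no doublet caller was run. Leaving out mixed cells addresses only epithelial-mesenchymal pairs; droplets with cells of 2 epithelial classes were not sought. Genes were placed with GENCODE M21.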

Additional observations from a re-analysis of the deposited data

Results flagged for a closer look

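The Cldn1 ratio of epithelial over mesenchymal cells lay on different sides of 1 at different stages. It was 1.02 at E13.5 and 0.395 in the E14.5 library, but 6.47 for E15.5 and 12.7 for P0. The difference between stages was not tested, and 12 of the 20 mesenchymal UMIs of E14.5 lay in 1 cell.

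Barcodes under 5000 UMIs, which entered no comparison, held claudin UMIs above the mesenchymal level of the same library. In stage order, the 7 members together stood at 376 CPM, 350.2 CPM, 917 CPM and 1392 CPM in these barcodes. Mesenchymal cells stood at 14.53, 26.3, 52.8 and 100.1 CPM, and epithelial cells at 1272, 756, 2058 and 2830 CPM.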

How the results depend on the processing

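Of 324 alternative ratios whose reported interval lay on one side of 1, 320 kept their side under the alternatives run. The exceptions were, with cells thinned to 5000 UMIs, Cldn4 (0.967) and Cldn7 (0.863) at E14.5, where 1 Krt-high cell was left, and Cldn1 (1.20) at E15.5 in Krt-high over Krt-low cells, and, with a class margin of 0.5 SD, Cldn3 in suprabasal-list over bud-list cells of E15.5 (0.810). Counts of members past 2-fold moved as follows. With thinned cells, 3, 0 and 2 were higher in Krt-high cells of the embryonic stages in order, 0 lower at E15.5, and 0 lower in E14.5 epithelium than mesenchyme. The limit of 20 UMIs was applied after thinning, so members with too few UMIs left these counts. Cldn1, the member lower in E14.5 epithelium before, was then found in only 4 epithelial and 2 mesenchymal cells. The E15.5 count of 1 lower in Krt-high cells was also 0 with a mitochondrial maximum of 10% and with a keratin limit of 10, where the Cldn1 ratio was 0.535 and 0.606. With the margin, 1 member was higher in suprabasal-list and 2 in bud-list over basal epidermis-list cells at E15.5. The cause of these changes was not tested. Sizes were less stable than sides: apart from the reversed ones, 79 of 335 alternative ratios lay outside the reported interval, 24 with the margin, 22 with thinned cells and none with a minimum of 3000 UMIs. Without the E14.5 mesenchymal cell with most Cldn1 UMIs, chosen after seeing the data, the Cldn1 ratio was 0.922. No paired analysis was possible because each stage has 1 library. Cldn8 had under 20 UMIs in each library and stood at 0.280 CPM (upper limit 0.72) in E15.5 epithelium. Cldn1 had 13 and 12 epithelial UMIs at E13.5 and E14.5.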
